A study of Mus musculus with 12 samples.

Results

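The 10 genes described here are Slc2a1, Hk1, Hk2, Pfkp, Pfkl, Pgk1, Ldha, Pdk1, Slc16a3 and Hif1a, that is Hif1a and 9 glucose-use genes that mTORC1 and the hypoxia-inducible factor HIF1A are known to drive. They were picked by symbol from the 14851 genes of the deposited tables, with earlier results of these data known, and all 10 were found and passed the filter on low values in every comparison. The cells are 562 cells, a line that immortalized spontaneously from a cutaneous vascular tumour of a tamoxifen-treated Tsc1 f/f;Scl-Cre mouse, so that control and KO cells alike descend from a tumour in which Cre deleted floxed Tsc1, the brake on mTORC1, in endothelial cells. RNA-sequencing compared 3 libraries of control 562 cells with 9 of KO cells, 3 for each of the autophagy genes Fip200, Atg5 and Atg7, to see how loss of autophagy changes the tumour cells. Tsc1 was listed at 5.23 to 7.01 RPKM in control and 2.59 to 6.44 over the KO libraries, and reads inside the deleted part were not separated from the rest. It was called lower in Atg5 KO (log2 -0.51, adjusted p = 0.0649, limma), a call lost without control replicate 2 or Atg5 KO replicate 1 or 2 (0.132, 0.193 and 0.191, in a range of 0.0508 to 0.350 over its alternatives), and did not pass in Atg7 KO (-0.51, adjusted p = 0.128) or Fip200 KO (-0.32, adjusted p = 0.668). The KO cells were made by CRISPR-Cas9 with lentiviral guides and puromycin selection. The control label gives the genotype as wildtype, which can refer to the autophagy genes alone, and all 12 labels give the strain as C57BL/6. All libraries come from 1 cell line, and the labels do not say which clones the KO libraries stand for.

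Glycolysis splits glucose into pyruvate in the cytosol. Cells with active mTORC1 make more HIF1A protein, and HIF1A with its partner ARNT raises the transcription of glucose carriers, glycolytic enzymes, the lactate-forming enzyme and the kinase that closes the mitochondrion to pyruvate. Oxygen-dependent prolyl hydroxylases and VHL mark HIF proteins for degradation, so the activity of the pathway is set largely at the protein level, which RNA-sequencing does not measure.

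Each library held between 17266926 and 23629730 reads on the listed genes, and the members had between 1041 and 50245 reads each in a library, so counting error was small for all of them. The targeted genes were not all lower in their own KO. Rb1cc1, which encodes FIP200, was at 5.18, 6.84 and 2.06 RPKM in Fip200 KO and 6.43, 8.27 and 7.73 in control, Atg5 was at 8.53, 15.5 and 12.6 in Atg5 KO and 14.2, 11.1 and 10.6 in control, and Atg7 was at 5.40, 2.64 and 8.34 in Atg7 KO and 18.4, 25.0 and 19.8 in control, the only one to pass the test in its own KO (adjusted p = 0.0216, limma). Atg7 was also called lower in Atg5 KO, at 9.99, 11.9 and 9.94 RPKM (log2 -0.95, adjusted p = 0.00830, limma), also without each single library (0.00752 to 0.409 over its alternatives). Of the markers, Pecam1 was between 265 and 539 RPKM in all libraries and Lyve1 between 60.6 and 393, while Prox1, the defining factor of lymphatic endothelium, reached at most 5.79 and Vwf at most 0.809. The 11 pan-endothelial markers summed to 1204 to 3025 RPKM in control, the lowest in control replicate 2, and to 2215 to 3402 over the KO libraries, and the 7 lymphatic markers in the tables to 344 to 468 and to 424 to 961. Of these 7, Lyve1 and Flt4 were called higher in Atg5 KO (log2 1.25 and 0.80, adjusted p = 0.0480 and 0.0734, limma) and Lyve1 in Atg7 KO (1.11, adjusted p = 0.0947). Each of these calls was lost without 2 or more single libraries, and the adjusted p over the alternatives ranged from 0.0119 to 0.148, 0.0520 to 0.186 and 0.0380 to 0.695. The summed level of the 10 fibroblast and mural markers in the tables was 21.7 to 225 RPKM in control, 17.9 to 291 for Fip200 KO, 114 to 244 for Atg5 KO and 73.8 to 362 for Atg7 KO. Control replicate 2 was the highest control in it, with Col3a1 at 143 RPKM and Dcn at 56.9. In all KO libraries but Fip200 KO replicate 3 Thy1 made up most of this sum. It was at 2.36 to 17.7 RPKM in control, 107 to 207 in Atg5 KO (log2 4.02, adjusted p = 0.00854, limma), 71.2 to 346 in Atg7 KO (4.32, adjusted p = 0.0207) and 0.210 to 288 in Fip200 KO (2.09, adjusted p = 0.658). Of this list 2 of 4 tested markers were called higher in Atg5 KO, Thy1 and Acta2, against 22.9% of all genes tested, and 2 of 4 in Atg7 KO, Thy1 and Col1a2, against 11.3%. Both Thy1 calls held without each single library, and their adjusted p ranged from 0.00771 to 0.336 and from 0.0148 to 0.768 over the alternatives (limma). Col1a2, at most at 0.0202 RPKM in control and at 0.756 to 1.54 in Atg7 KO, entered the Atg7 KO comparison only through its Atg7 KO libraries, so its direction was fixed by the filter and its call carries no weight. The Acta2 call was lost without control replicate 1 or 2 or Atg5 KO replicate 1 or 2 (adjusted p = 0.105 to 0.143, limma, and 0.0206 to 0.519 over its alternatives). Of 10 tested pan-endothelial markers 6 were called higher in Atg5 KO, against 22.9% of all genes tested, and 0 in Atg7 KO, against 11.3%. In Atg7 KO 3 of the 10 had an unadjusted p under 0.05 (limma), and the list median was log2 0.67. Esam kept its call without each single library, while Cdh5, Cldn5, Egfl7, Kdr and Tie1 each lost it without 1 or more single libraries, Atg5 KO replicate 1 for all 5. With a term for the prefix of the library names, Esam, Cldn5, Egfl7 and Kdr were still called (adjusted p = 0.0721, 0.0226, 0.0826 and 0.0798, limma). Cdh5 and Tie1 were not (0.1004 and 0.134). The 5 leukocyte markers summed to 52.9 to 111 RPKM in control, 19.3 to 265 for Fip200 KO, 15.0 to 16.7 for Atg5 KO and 13.9 to 27.3 for Atg7 KO, most of it Cd68 and the rest mainly Lyz2, with Ptprc at most at 0.129. Cd68 was called lower in Atg5 KO (log2 -2.26) and Atg7 KO (-1.70), and the Atg7 KO call was lost without any 1 control or without Atg7 KO replicate 1 (adjusted p = 0.131 to 0.176, limma, and 0.0732 to 0.874 over its alternatives). The 3 epithelial markers summed to at most 27.6 RPKM, and Krt19, a keratin, was called lower in Atg5 KO (log2 -2.57, adjusted p = 0.00481, limma), also without each single library (0.00376 to 0.274 over its alternatives). The part of these markers in the results below was not tested, and in RNA from whole cultures fewer cells of a kind and less RNA per cell cannot be told apart.

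The members that passed the test were 4 in Atg5 KO, 2 in Atg7 KO and 0 in Fip200 KO cells. A gene passed when its adjusted p did not exceed 0.1 (limma on log2 of RPKM plus 0.5, Benjamini-Hochberg over all genes tested), and where a change is called 2-fold its log2 fold change was also 1 or more in size. In Atg5 KO cells 4 of the 10 members fell, namely Pfkp, Hif1a, Slc16a3 and Pgk1, against 18.7% of all genes tested, and the first 3 of them fell at least 2-fold, against 6.94%. None of the members rose, against 22.9% of all genes at any fold and 4.31% at 2-fold. In Atg7 KO cells Pfkp fell 2-fold, 1 of 10 against 6.81% (13.7% at any fold), and Pfkl rose below 2-fold, 1 of 10 against 11.3%, with none rising 2-fold against 3.29%. In Fip200 KO cells 0 members passed by limma, with 3 at an unadjusted p under 0.05, where 1.69% of all genes were lower and 0.356% higher (1.64% and 0.347% at 2-fold). With 10 members, 1 call is near these background shares, and the 4 lower members in Atg5 KO cells are above theirs. The members were chosen with earlier results of these data known, so this excess is only a description. With a term for the prefix of the library names, described further on, 1 of the 4 still passed.

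Of the members, 7 had a log2 fold change below 0 in Atg5 KO and 5 in both other KO cells. Their median log2 fold change was -0.09 for Fip200 KO, -0.18 for Atg5 KO and 0.07 for Atg7 KO, beside medians over all genes tested of 0.02, 0.06 and -0.01. The ranges of KO and control libraries did not overlap for 3 members lower and 1 higher in Fip200 KO (12.4% and 11.7% of all genes), 4 lower and 1 higher in Atg5 KO (22.0% and 28.4%), and 2 lower and 1 higher in Atg7 KO (20.4% and 19.2%). The plot of fold changes shows how the direction varied by gene within each KO. The same 3 control libraries stand in all 3 comparisons, so their results are not independent.

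**Figure D1:**
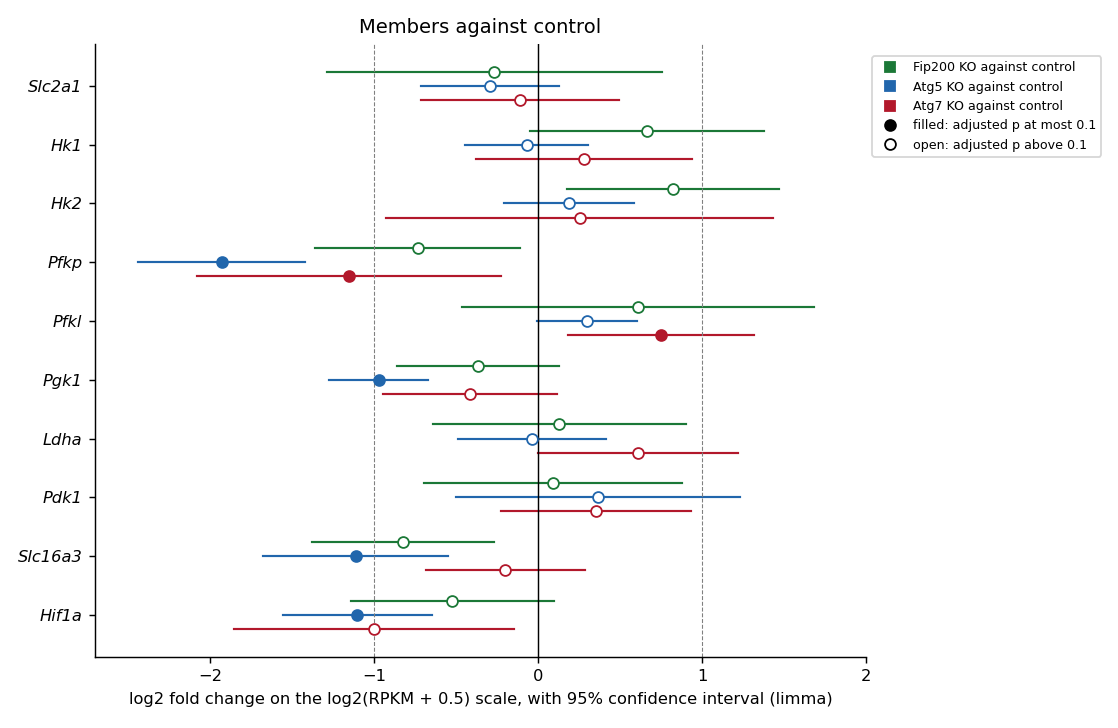
Log2 fold change of each member in Fip200 KO (green), Atg5 KO (blue) and Atg7 KO (red) against control, on the log2(RPKM + 0.5) scale, with 95% confidence intervals from limma (3 against 3 libraries); filled points passed the test, and dashed lines mark a 2-fold change. Pfkp lies left of 0 in all 3 KO cells, and 4 blue points are filled, all of them left of 0.

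The upstream sequences of the 4 members that fell in Atg5 KO cells and of Pfkl, which rose in Atg7 KO cells, are shown because these are the members that the results turn on and HIF1A is known to bind a short core in such promoters. They are the 250 bases before the RefSeq start site on GRCm38.p6, read 5′ to 3′ on the strand of the gene, with each match to the cores ACGTG and GCGTG on either strand in capitals. The windows are chr12:73907617-73907866 (plus strand) for Hif1a, chr13:6648772-6649021 (minus) for Pfkp, chr11:120948817-120949066 (plus) for Slc16a3, chrX:106186850-106187099 (plus) for Pgk1 and chr10:78009808-78010057 (minus) for Pfkl.
Hif1a: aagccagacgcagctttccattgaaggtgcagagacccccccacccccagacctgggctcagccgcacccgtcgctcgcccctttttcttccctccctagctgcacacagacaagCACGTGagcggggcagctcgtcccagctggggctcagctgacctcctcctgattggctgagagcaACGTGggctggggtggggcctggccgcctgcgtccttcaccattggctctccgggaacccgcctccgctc
Pfkp: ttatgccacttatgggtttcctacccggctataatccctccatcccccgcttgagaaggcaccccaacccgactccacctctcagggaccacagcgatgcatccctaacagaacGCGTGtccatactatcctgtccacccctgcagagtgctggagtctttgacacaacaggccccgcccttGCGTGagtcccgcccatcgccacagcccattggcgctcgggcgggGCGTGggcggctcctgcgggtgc
Slc16a3: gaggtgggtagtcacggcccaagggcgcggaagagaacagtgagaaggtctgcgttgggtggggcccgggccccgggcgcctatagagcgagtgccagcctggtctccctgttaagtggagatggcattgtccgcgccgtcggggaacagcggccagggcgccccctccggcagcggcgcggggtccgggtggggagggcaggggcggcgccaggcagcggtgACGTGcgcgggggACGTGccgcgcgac
Pgk1: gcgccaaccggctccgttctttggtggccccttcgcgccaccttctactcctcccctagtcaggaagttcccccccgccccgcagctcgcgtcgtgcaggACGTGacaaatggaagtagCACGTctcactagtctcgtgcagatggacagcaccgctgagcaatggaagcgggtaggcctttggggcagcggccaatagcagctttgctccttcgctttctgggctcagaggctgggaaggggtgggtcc
Pfkl: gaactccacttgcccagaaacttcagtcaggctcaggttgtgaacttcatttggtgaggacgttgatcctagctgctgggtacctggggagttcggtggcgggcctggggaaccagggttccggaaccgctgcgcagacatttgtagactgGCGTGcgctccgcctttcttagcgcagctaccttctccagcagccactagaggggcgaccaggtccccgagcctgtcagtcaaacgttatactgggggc

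Hif1a, Slc16a3 and Pgk1 held ACGTG and no GCGTG, while Pfkp and Pfkl held GCGTG and no ACGTG. In Hif1a, 2 of the 3 matches are the palindrome CACGTG read on both strands, which is also the core of the E-box bound by MYC and TFEB. The Slc16a3 matches start 27 and 14 bases before the start site, those of Pfkp 136, 68 and 23 bases before it, and that of Pfkl 99 bases before it. RefSeq gives 13 such windows for the 10 members, and 11 of them hold at least 1 of the cores, compared with 38.6% of all 32851 windows. ACGTG was in 6 of the 13 and in 16.6% of all windows, and GCGTG in 6 of the 13 and in 28.2% of all. The median GC content was 62.8% in the member windows and 52.4% in all. Members that passed the test and members that did not both held cores, for example Slc2a1 and Hk2, and a match describes letters, not a bound site.

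Slc2a1 encodes GLUT1, the basal glucose carrier of most cells, and did not pass the test in any KO. Its level was 173, 234 and 227 RPKM in control, 175, 327 and 92.6 for Fip200 KO, 150.4, 211 and 159 for Atg5 KO and 191, 142 and 270.5 for Atg7 KO. All groups overlapped, and the Fip200 KO libraries alone spanned the range of all the others. Its log2 fold changes in that order of KO cells were -0.27 ± 0.43 (SE), -0.29 ± 0.18 and -0.11 ± 0.26, with adjusted p = 0.785, 0.249 and 0.790 (limma). The 95% interval in Atg5 KO ran from -0.71 to 0.13, so a 2-fold change lay outside it.

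GLUT3, encoded by Slc2a3, was a minor carrier in control, where Slc2a1 made up 99.5% to 99.6% of the summed RPKM of the pair. In Fip200 KO cells that share was 92.3%, 93.6% and 98.5%, below all control libraries (exact permutation p = 0.1, two-sided, the smallest that 3 against 3 allows). It was also below all controls in Atg5 KO, at 98.9%, 98.6% and 99.4% (exact permutation p = 0.1), and overlapped control in Atg7 KO, at 98.8%, 99.7% and 94.9% (p = 0.4). Slc2a3 itself was at 14.6, 22.4 and 1.43 RPKM in Fip200 KO and at 0.919, 1.04 and 1.09 in control. The log2 fold change of Slc2a3 in Fip200 KO did not pass (2.53, adjusted p = 0.218, limma).

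Lactate leaves the cell through MCT4, encoded by Slc16a3, which fell in Atg5 KO cells. Control libraries were at 131, 139 and 186 RPKM and Atg5 KO libraries at 63.7, 96.5 and 54.2, so the groups were apart and every Atg5 KO library was under the lowest control. The log2 fold change was -1.11 ± 0.24 (SE), that is 2.16-fold lower (adjusted p = 0.0172, limma; exact permutation p = 0.1). Fip200 KO libraries, at 68.0, 103 and 87.1 RPKM, also lay under all controls, yet their log2 fold change of -0.82 ± 0.24 missed the threshold (adjusted p = 0.172, and 0.0856 to 0.736 over its alternatives). Atg7 KO libraries, at 107, 157 and 134 RPKM, overlapped control, with a log2 fold change of -0.20 ± 0.21 (adjusted p = 0.528).

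MCT1, encoded by Slc16a1, can carry lactate both ways and was lower in level than Slc16a3 in every library. Slc16a3 made up 83.3% to 92.3% of the summed RPKM of both carriers in control and 76.4% to 88.6% in Atg5 KO (exact permutation p = 0.2). The order of the carriers was the same in all 12 libraries.

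**Figure D2:**
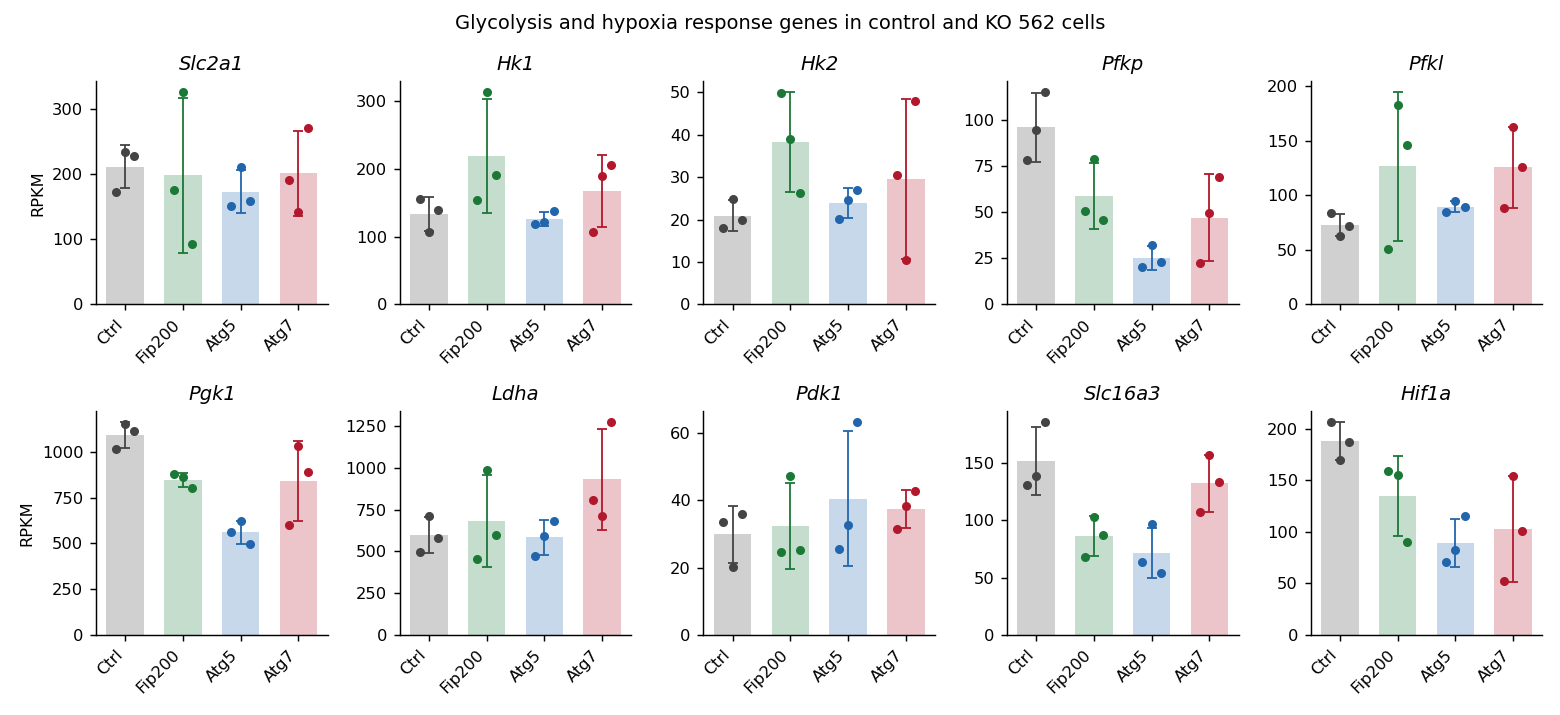
RPKM of the 10 members in control (grey), Fip200 KO (green), Atg5 KO (blue) and Atg7 KO (red) 562 cells; points are the 3 libraries of a group, bars their mean and error bars the SD, and each panel has its own linear axis from 0. For Pfkp, Slc16a3, Hif1a and Pgk1 all 3 Atg5 KO points lie under the lowest control point, whereas Slc2a1, Ldha and Pdk1 overlap control in every KO.

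Hexokinase traps glucose in the cell by phosphorylation, and neither hexokinase passed the test. Hk1, the isoform of most tissues, was at 155, 107 and 139.6 RPKM in control, 154, 314 and 191 for Fip200 KO, 119, 122 and 138 for Atg5 KO and 107, 190.2 and 205 for Atg7 KO. Hk2, the inducible isoform bound to mitochondria and a known HIF1A target, was at 18.0, 24.9 and 19.8 RPKM in control, 49.7, 39.1 and 26.2 for Fip200 KO, 20.1, 24.6 and 27.0 for Atg5 KO and 30.4, 10.4 and 47.8 for Atg7 KO. All Fip200 KO libraries were above the highest control for Hk2, and Fip200 KO replicate 3 was the nearest to control.

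For Hk2 in Fip200 KO cells the log2 fold change was 0.82 ± 0.27 (SE), 1.77-fold, with an unadjusted p of 0.0190 and an adjusted p of 0.216 (limma). Without Fip200 KO replicate 3 it was 1.07 with an adjusted p of 0.0667, and over its alternatives the adjusted p ranged from 0.0667 to 0.778. Hk1 was 0.66 ± 0.30 there (adjusted p = 0.338). In Atg5 KO cells Hk1 and Hk2 gave -0.07 and 0.19, with 95% intervals from -0.44 to 0.30 and from -0.21 to 0.59. Hk2 made up 10.4%, 18.9% and 12.4% of the summed RPKM of the pair in control, 24.5%, 11.1% and 12.1% for Fip200 KO, 14.5%, 16.7% and 16.4% for Atg5 KO and 22.2%, 5.16% and 18.9% for Atg7 KO. Replicate 1 of Fip200 KO and of Atg7 KO lay above all controls and Atg7 KO replicate 2 below them, and each KO group overlapped control (2-sided exact permutation p = 0.7, 0.6 and 0.9 in that order, where 3 against 3 cannot go below 0.1).

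Phosphofructokinase makes the first step that commits sugar to glycolysis, and Pfkp was the isoform whose share of their sum lay below all controls in all 3 KO cells. Pfkp, the platelet isoform, was at 78.2, 94.5 and 115 RPKM in control and at 20.1, 32.4 and 22.7 in Atg5 KO. Fip200 KO libraries had 50.7, 79.0 and 45.9 RPKM, and Atg7 KO libraries 22.3, 49.5 and 69.0. Atg5 KO and Atg7 KO libraries were all under the lowest control, whereas Fip200 KO replicate 2 was within the control range.

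Pfkp fell 3.80-fold in Atg5 KO cells, the member that fell furthest there, with a log2 fold change of -1.93 ± 0.21 (SE; adjusted p = 0.00406, limma). It fell 2.22-fold in Atg7 KO cells (log2 -1.15 ± 0.39, adjusted p = 0.0920), and this call was lost when any of the 3 control libraries or Atg7 KO replicate 1 was left out (adjusted p = 0.122, 0.198 and 0.246 without control replicates 1, 2 and 3 and 0.153 without Atg7 KO replicate 1, in a range of 0.0644 to 0.673 over its alternatives). Fip200 KO cells gave -0.73 ± 0.27, which did not pass (adjusted p = 0.250). On GRCm38, Pfkp overlaps Pitrm1, a mitochondrial protease gene on the other strand, and while the libraries were made with a directional kit, the strand setting of the counting is not given in the sources used here. Pitrm1 was at 37.0 to 42.2 RPKM in control and at 52.7 to 64.2 in Atg5 KO, above all controls, and it was looked at because of this overlap.

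Pfkl, the liver isoform, was at 83.8, 63.0 and 72.2 RPKM in control, 50.8, 183 and 146 for Fip200 KO, 84.4, 94.4 and 89.4 for Atg5 KO and 88.4, 163 and 126 for Atg7 KO. It rose 1.68-fold in Atg7 KO cells, with all 3 libraries above all controls (log2 0.75 ± 0.24 SE, adjusted p = 0.0791, limma). The call was lost without any 1 control or without Atg7 KO replicate 2 or 3 (adjusted p = 0.105, 0.207, 0.200, 0.111 and 0.170, in a range of 0.0654 to 0.776 over its alternatives). In Atg5 KO cells the libraries also lay above control, but by less than 1 RPKM for the nearest pair, and the log2 fold change of 0.30 ± 0.13 did not pass (adjusted p = 0.120). Fip200 KO replicate 1 was below all controls and replicates 2 and 3 above them.

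Pfkm, the muscle isoform, fell in Atg5 KO and Atg7 KO cells (log2 -0.95, adjusted p = 0.0366 in Atg5 KO and -0.84, adjusted p = 0.0764 in Atg7 KO, limma). These calls were lost without Atg5 KO replicate 1 or 2 (adjusted p = 0.116 and 0.105, in a range of 0.0191 to 0.116), and without control replicate 2 or 3 or Atg7 KO replicate 1 or 3 (0.187, 0.190, 0.207 and 0.112, in a range of 0.0554 to 0.434). RPKM is scaled by length, so the 3 isoforms can be set side by side. Pfkp made up 40.0%, 42.7% and 49.5% of their summed RPKM in control and 16.2%, 21.9% and 15.9% in Atg5 KO. Pfkl made up 42.9%, 28.4% and 31.0% in control and 67.7%, 63.8% and 62.6% in Atg5 KO. In every Atg5 KO and Atg7 KO library Pfkl was the isoform with the largest share, and in 2 of the 3 controls it was Pfkp.

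In Atg7 KO cells the Pfkp share was 17.1%, 20.6% and 30.6% and the Pfkl share 67.6%, 67.9% and 56.1%. In Fip200 KO cells they were 34.2%, 26.2% and 21.7% and 34.3%, 60.8% and 69.2%, so that replicate 1 was the library nearest to control. The mean Pfkp share was 44.0% ± 4.87 (SD, n = 3) in control, 27.4% ± 6.35 for Fip200 KO, 18.0% ± 3.36 for Atg5 KO and 22.8% ± 7.04 for Atg7 KO, and no KO library overlapped control (exact two-sided permutation p = 0.1, the smallest possible). Of 24 such comparisons over 8 isoform shares, 9 reached this smallest p, and the Benjamini-Hochberg value of those was 0.267. The summed RPKM of the isoforms was 217 ± 19.3 (SD, n = 3) in control, 221 ± 77.2 for Fip200 KO, 138 ± 12.3 for Atg5 KO and 199 ± 59.4 for Atg7 KO.

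**Figure D3:**
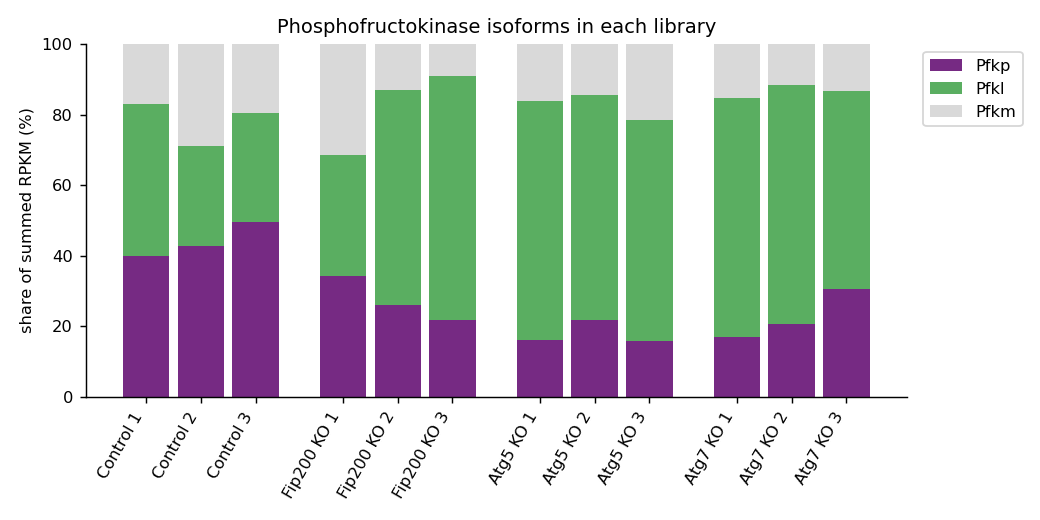
Share of Pfkp (purple), Pfkl (green) and Pfkm (grey) in their summed RPKM, in percent, as 1 stacked bar for each of the 12 libraries. Pfkp takes 40.0% to 49.5% in the control bars and at most 34.2% in the KO bars, and Pfkl takes 56.1% or more in the Atg5 KO and Atg7 KO bars.

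Phosphoglycerate kinase, encoded by Pgk1, makes the first ATP of the pathway and was the member with the highest level in control. It was at 1016, 1153 and 1112 RPKM in control and 562, 622 and 496 in Atg5 KO, a fall of 1.96-fold with every Atg5 KO library far under every control (log2 -0.97 ± 0.13 SE, adjusted p = 0.00538, limma). Fip200 KO libraries, at 876, 864 and 804 RPKM, were also all under control, with little spread, but their log2 fold change of -0.37 ± 0.21 did not pass (adjusted p = 0.427). Atg7 KO libraries were at 600.4, 1032 and 891 RPKM, and replicate 2 overlapped control (log2 -0.41 ± 0.23, adjusted p = 0.239).

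Lactate dehydrogenase A, encoded by Ldha, turns pyruvate into lactate and did not pass in any KO. It was at 498, 714 and 579 RPKM in control, 455, 990.1 and 599 for Fip200 KO, 473, 592 and 684 for Atg5 KO and 805, 711 and 1276 for Atg7 KO. Only in Atg7 KO was the interval nearly clear of 0 (log2 0.61 ± 0.26 SE, 95% interval -0.0024 to 1.22, adjusted p = 0.149, limma). Atg5 KO cells gave -0.03, with an interval from -0.48 to 0.41. Ldha made up at least 97.5% of the summed RPKM of Ldha and Ldhb in every library, and the lowest share was that of control replicate 2, where Ldhb was at 18.0 RPKM. Ldha and Pgk1 have processed pseudogenes in the mouse genome, so their counts are uncertain where reads match more than 1 place.

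Pyruvate dehydrogenase kinase 1, encoded by Pdk1, holds pyruvate back from the mitochondrion and did not pass in any KO. It was at 33.5, 20.2 and 36.0 RPKM in control, 24.7, 47.3 and 25.3 for Fip200 KO, 25.6, 32.5 and 63.4 for Atg5 KO and 31.5, 38.4 and 42.7 for Atg7 KO. All groups overlapped, and the log2 fold changes were 0.09 ± 0.34 (SE), 0.37 ± 0.36 and 0.36 ± 0.25 (adjusted p = 0.912, 0.468 and 0.348, limma). Pdk1 made up 40.8% to 65.0% of the summed RPKM of Pdk1 to Pdk4 in control and 64.1% to 79.1% in Atg5 KO (exact permutation p = 0.2), where Pdk3, the next of them in level, fell (log2 -0.59, adjusted p = 0.0455, and 0.110 and 0.144 without control replicate 3 or Atg5 KO replicate 1, in a range of 0.0191 to 0.180).

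Hif1a, which encodes the oxygen-regulated subunit, was at 207, 170.3 and 188 RPKM in control, 159.7, 155 and 90.0 for Fip200 KO, 70.2, 82.3 and 115 for Atg5 KO and 52.4, 155 and 101 for Atg7 KO. All 9 KO libraries were below the lowest control library. The fall passed the test in Atg5 KO cells only, at 2.14-fold (log2 -1.10 ± 0.19 SE, adjusted p = 0.00995, limma). Atg7 KO cells gave -1.0 ± 0.36 with an adjusted p of 0.104, just over the threshold, and the adjusted p ranged over its alternatives from 0.0254, without Atg7 KO replicate 2, to 0.520. Fip200 KO cells gave -0.52 ± 0.26 (adjusted p = 0.379). Whether the fold changes of Hif1a differed between KO cells is given with the direct comparisons.

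The names of the libraries begin with FY, JG or Yang, and the labels do not say what these prefixes stand for. Atg5 KO replicates 1 and 2 share the JG prefix with control replicates 2 and 3, and within these 4 libraries the log2 differences were -2.01 for Pfkp, -1.23 for Hif1a, -1.03 for Slc16a3 and -0.94 for Pgk1, about as large as over all 6. With the prefix as a term in a fit of all 12 libraries, 1 of these 4 calls remained, that of Pfkp (log2 -2.01, adjusted p = 0.0703, limma), while Pgk1 and Slc16a3 both had an adjusted p of 0.103 and Hif1a 0.177. The adjusted p over all alternatives ranged from 0.00378 to 0.0703 for Pfkp, 0.00423 to 0.103 for Pgk1, 0.0160 to 0.103 for Slc16a3 and 0.00911 to 0.177 for Hif1a. Of the pathway genes outside the member list named further on, those still called with the prefix term were Adm, Arnt2, Pgls and Pcx in Atg5 KO (adjusted p = 0.0920, 0.0877, 0.0876 and 0.0829), and none in Atg7 KO or Fip200 KO.

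Fip200 KO libraries share the FY prefix with control replicate 1 alone, and there the difference was 1.02 for Hk2, -0.66 for Hif1a and -0.63 for Slc16a3. No control library has the Yang prefix of the 3 Atg7 KO libraries, so prefix and KO cannot be told apart for them within a prefix. With the prefix as a term, their difference from control was estimated only through Atg5 KO replicate 3, the other library with that prefix. In that fit 0 members passed in Atg7 KO cells (limma, with 0 members at an unadjusted p under 0.05), which cannot decide whether the calls hold. The log2 fold changes there were -1.12 ± 0.74 (SE) for Pfkp and 0.85 ± 0.81 for Pfkl, beside standard errors of 0.39 and 0.24 without the term. Leaving out control replicate 2, with its higher Col3a1 and Dcn, left the 4 calls in Atg5 KO cells in place (log2 -1.93 for Pfkp, -1.17 for Hif1a, -1.17 for Slc16a3 and -0.93 for Pgk1) and 0 calls in Atg7 KO cells, with 2 members at an unadjusted p under 0.05. There Pfkp was at -1.15 and Pfkl at 0.65, and leaving out control replicate 1 or 3 instead also gave 0 member calls in Atg7 KO cells, with 2 and 1 members at an unadjusted p under 0.05 (limma).

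Direct comparison of the KO cells in 1 fit of all 12 libraries called 0 of the 10 members between any pair, and 0% of the 12233 genes tested passed in each of the 3 comparisons (limma, with 927, 916 and 562 genes at an unadjusted p under 0.05). Without Fip200 KO replicate 3, 135 genes were lower and 165 higher by 2-fold or more in Atg5 KO than in Fip200 KO, and 203 lower and 199 higher in Atg7 KO than in Fip200 KO, still with 0 members among the calls. At an unadjusted p under 0.05, Pfkp, Pgk1 and Hk1 were lower in Atg5 KO than in Fip200 KO (log2 -1.19, -0.60 and -0.73), Slc16a3 was higher in Atg7 KO than in Fip200 KO (0.62), and Slc16a3 and Pgk1 were higher in Atg7 KO than in Atg5 KO (0.91 and 0.56). The adjusted p was between 0.524 and 1.00 for these 6. For Hif1a the differences were -0.58, -0.48 and 0.10, with 95% intervals from -1.37 to 0.21, -1.26 to 0.31 and -0.69 to 0.89.

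Glycolytic enzymes as a list, with 24 of 30 genes tested and 6 of them members, held 5 that fell and 1 that rose in Atg5 KO, 4 that fell and 4 that rose in Atg7 KO and 0 in Fip200 KO (limma, with 5 at an unadjusted p under 0.05). The 1 that rose in Atg5 KO was Pfkfb4, a gene near the filter, with means of 0.280 RPKM in control and 0.978 in Atg5 KO. Its call was kept without only 3 of the 6 libraries (adjusted p 0.0133 to 0.307 over its alternatives). The shares of all genes that fell and rose were 18.7% and 22.9% for Atg5 KO and 13.7% and 11.3% for Atg7 KO, so the list's counts at any fold were near or under the background, and each of the 4 rises in Atg7 KO was lost without 1 or more single libraries. At 2-fold, 3 of 24 fell in each of Atg5 KO and Atg7 KO, against 6.94% and 6.81% of all genes, and 0 rose, against 4.31% and 3.29%. The list's median log2 fold change was -0.05, 0.15 and 0.16 in that order of KO cells. Beside Pfkp and Pfkm, the enzymes that fell in both Atg5 KO and Atg7 KO were Aldoc and Eno2, forms of aldolase and enolase known from the brain. Aldoc was at 9.19, 11.2 and 7.30 RPKM in control, 1.25, 2.45 and 2.26 for Atg5 KO and 0.658, 0.879 and 4.84 for Atg7 KO (log2 -1.99 and -2.23, adjusted p = 0.00502 and 0.0426, limma). Eno2 was at 4.52, 13.1 and 6.06 RPKM in control, 2.17, 2.60 and 2.75 for Atg5 KO and 2.05, 0.314 and 4.05 for Atg7 KO (log2 -1.36 and -1.86, adjusted p = 0.0313 and 0.0972). In Atg5 KO both calls held without each single library. In Atg7 KO that of Aldoc was lost without control replicate 2 or 3 or Atg7 KO replicate 1 (adjusted p = 0.127, 0.117 and 0.125, in a range of 0.0117 to 0.709 over its alternatives), and that of Eno2 held only without Atg7 KO replicate 3 (0.0699 to 0.714 over its alternatives).

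Those that rose in Atg7 KO beside Pfkl were Pgam1 (log2 0.65, adjusted p = 0.0763, limma), Pkm (0.47, adjusted p = 0.0962) and Pfkfb3 (0.72, adjusted p = 0.0508), which make phosphoglycerate mutase, pyruvate kinase and the enzyme that forms the activator of phosphofructokinase. Over their alternatives the adjusted p ran from 0.0639 to 0.748, 0.0544 to 0.761 and 0.0417 to 0.704, with 1, 1 and 3 of the 6 calls kept when single libraries were left out. The abundant enzymes Aldoa, Tpi1 and Gapdh did not pass in any KO, with log2 fold changes from -0.14 to 0.65. Eno1 was listed at no more than 1.46 RPKM in each library and Eno1b, its near-identical copy, at 21.0 to 61.6, so the level of the main enolase is uncertain in these tables.

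Among 7 tested genes for glucose uptake and lactate export, Slc16a3 alone passed in Atg5 KO and Slc2a8, an intracellular glucose carrier, alone in Atg7 KO (log2 -1.18, adjusted p = 0.0451, limma, and 0.120 without Atg7 KO replicate 1, in a range of 0.0421 to 0.692). The list medians were -0.15 for Fip200 KO, -0.29 for Atg5 KO and -0.20 for Atg7 KO. Of the 15 genes for pyruvate entry into mitochondria, 4 fell in Atg5 KO and 2 in Atg7 KO, beside 18.7% and 13.7% of all genes. Pcx, pyruvate carboxylase, was the lowest called in Atg5 KO (log2 -1.37, adjusted p = 0.0385, and 0.109 and 0.108 without Atg5 KO replicate 1 or 2, in a range of 0.0203 to 0.109). Of the 2 called in Atg7 KO, Pdp2, a phosphatase that reopens pyruvate dehydrogenase, was the lower (-0.63, adjusted p = 0.0823), and its call was lost without any 1 of the 6 libraries (0.0793 to 0.608 over its alternatives). The 7 genes of the pentose phosphate pathway had Pgls lower and Pgd higher in both Atg5 KO (-0.92 and 0.66) and Atg7 KO (-0.85 and 0.85), which encode consecutive steps of the branch that makes NADPH. The Pgd call in Atg7 KO was kept without only 2 of the 6 libraries (adjusted p 0.0165 to 0.533 over its alternatives), and the other 3 held without each. In Fip200 KO cells 0 genes of these 3 lists passed by limma, with 3, 0 and 1 at an unadjusted p under 0.05.

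**Figure D4:**
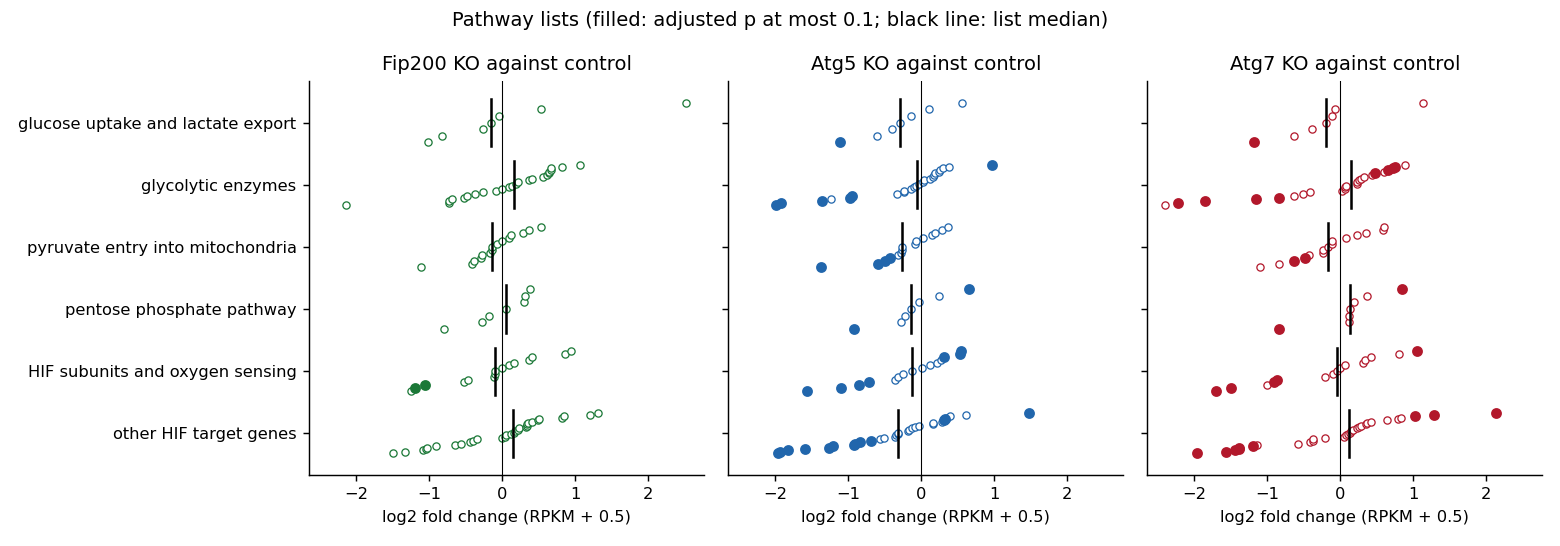
Log2 fold change against control, on the log2(RPKM + 0.5) scale, of the tested genes in 6 pathway lists in Fip200 KO (left), Atg5 KO (middle) and Atg7 KO (right); each point is a gene, filled where the gene passed the test, and black lines are list medians. Filled points lie on both sides of 0 in Atg5 KO and Atg7 KO, and the medians stay between -0.32 and 0.16.

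Of the subunits and sensors of the HIF pathway, 15 were tested, and 4 fell and 3 rose in Atg5 KO, 4 fell and 1 rose in Atg7 KO, and 2 fell in Fip200 KO. The shares of all genes were 18.7% and 22.9%, 13.7% and 11.3%, and 1.69% in the same order. Epas1, which encodes the HIF2A subunit prominent in endothelium, fell in all 3 KO cells. It was at 26.3, 18.9 and 26.9 RPKM in control, 8.18, 11.6 and 11.0 for Fip200 KO, 15.0, 12.6 and 15.2 for Atg5 KO and 6.66, 11.5 and 4.25 for Atg7 KO, with no overlap. The log2 fold changes were -1.19, -0.72 and -1.71 (adjusted p = 0.0867, 0.0219 and 0.0246, limma). The call in Fip200 KO was lost without any 1 control or without Fip200 KO replicate 1 or 2 (adjusted p = 0.231, 0.270, 0.495, 0.120 and 0.168, in a range of 0.0496 to 0.556), and that in Atg7 KO without control replicate 3 (0.103, in a range of 0.00815 to 0.402), while that in Atg5 KO held without each library. Siah1a, an E3 ligase that acts on the prolyl hydroxylases, was also called lower in all 3 (-1.06, -0.86 and -0.91, adjusted p = 0.0748, 0.0184 and 0.0542). Only 1 of the 6 single libraries could be left out with its call kept in Fip200 KO (replicate 3) and in Atg7 KO (replicate 2), where the adjusted p ran from 0.0391 to 0.483 and from 0.0138 to 0.882 over the alternatives.

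Of the partner subunits, Arnt2 fell in Atg5 KO and Atg7 KO (log2 -1.57 and -1.49, adjusted p = 0.00614 and 0.0122, limma), from 2.13 to 3.32 RPKM in control, and Arnt, at 25.2 to 39.0 RPKM there, fell in Atg7 KO (-0.86, adjusted p = 0.0651). The Arnt call was lost without control replicate 2 or 3 or Atg7 KO replicate 1 (adjusted p = 0.176, 0.158 and 0.118, in a range of 0.0580 to 0.641). Arnt did not pass in Atg5 KO (-0.36, adjusted p = 0.151) or Fip200 KO (-0.47, adjusted p = 0.479), nor did Arnt2 in Fip200 KO (-1.25, adjusted p = 0.173). Egln1, the main prolyl hydroxylase, rose in Atg7 KO only (29.8, 45.4 and 77.3 RPKM against 22.1, 19.4 and 26.1, log2 1.06, adjusted p = 0.0735, lost without any 1 control or Atg7 KO replicate 3 and between 0.0608 and 0.841 over its alternatives), where its difference from the other KO cells was not called. Egln3, a prolyl hydroxylase gene that HIF1A induces, did not pass in any KO (log2 0.17, -0.32 and -0.21).

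HIF target genes outside the member list, 30 of 32 tested, moved both ways. In Atg5 KO 10 fell and 3 rose, in Atg7 KO 6 fell and 3 rose and in Fip200 KO 0 passed by limma, with 6 at an unadjusted p under 0.05. The shares of all genes that fell and rose were 18.7% and 22.9% for Atg5 KO and 13.7% and 11.3% for Atg7 KO, so at any fold only the 10 of 30 that fell in Atg5 KO were well above theirs. At 2-fold, 6 of 30 fell in each of Atg5 KO and Atg7 KO, against 6.94% and 6.81% of all genes. In the same order, 1 and 3 rose at 2-fold, against 4.31% and 3.29%. The list medians were -0.32, 0.12 and 0.14 in that order of KO cells. Vegfa, the endothelial growth factor, was at 21.6, 37.4 and 20.9 RPKM in control and 8.15, 13.2 and 10.5 in Atg5 KO (log2 -1.26, adjusted p = 0.0169), and at 10.5, 7.35 and 16.7 in Atg7 KO (-1.20, adjusted p = 0.0591). The Atg7 KO call was lost without control replicate 2 or 3 or Atg7 KO replicate 1 (adjusted p = 0.158, 0.130 and 0.155, in a range of 0.0518 to 0.675). Its Fip200 KO libraries, at 8.13, 20.6 and 5.74 RPKM, lay under all controls without passing (-1.33, adjusted p = 0.238).

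Adm, the vascular peptide adrenomedullin, went the other way. It was at 71.2, 56.1 and 73.6 RPKM in control, 150.3, 169 and 252 for Atg5 KO and 334, 262 and 292 for Atg7 KO (log2 1.47 and 2.14, adjusted p = 0.00635 and 0.00416, limma), the highest of the list in both. Fip200 KO libraries, at 142, 275 and 118 RPKM, were above all controls too (log2 1.32, adjusted p = 0.139). The lowest of the list were Ero1l, an oxidase of the endoplasmic reticulum, in Atg5 KO (-1.97, adjusted p = 0.0258) and Ddit4, an inhibitor of mTORC1 that acts through TSC1 and TSC2, in Atg7 KO (-1.97, adjusted p = 0.0193). Ddit4 was at 114, 300.1 and 147 RPKM in control and at most 63.1 in each Atg5 KO and Atg7 KO library.

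**Figure D5:**
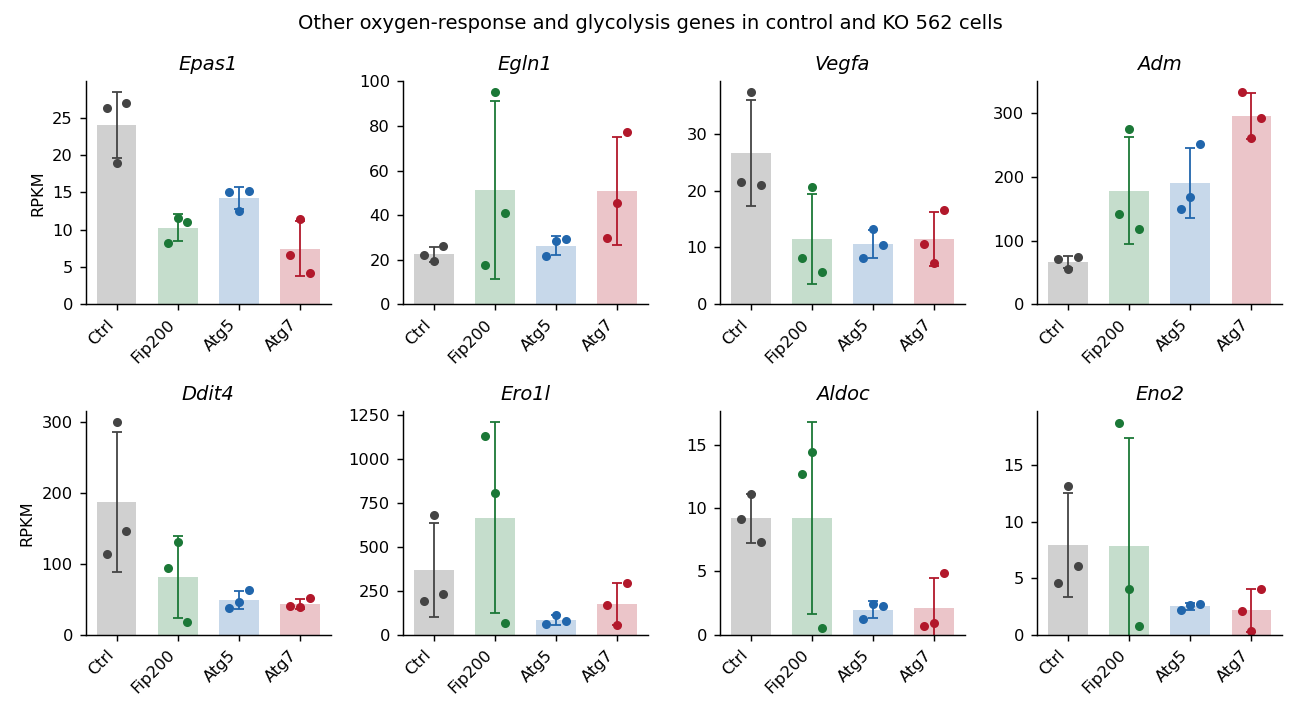
RPKM of Epas1, Egln1, Vegfa, Adm, Ddit4, Ero1l, Aldoc and Eno2 in control (grey), Fip200 KO (green), Atg5 KO (blue) and Atg7 KO (red) 562 cells; points are the 3 libraries of a group, bars their mean and error bars the SD, cut at 0. Epas1 and Vegfa lie below control in all 9 KO libraries and Adm above it, while Ero1l is at 65.3 to 1129 RPKM in Fip200 KO.

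By level per length, Pgk1 and Ldha led in every group, with Pgk1 first in control (1094 ± 70.3 RPKM, SD, n = 3) and Fip200 KO (848 ± 38.3) and Ldha first in Atg5 KO (583 ± 106) and Atg7 KO (930.3 ± 303). In control their ranges did not overlap, and in each KO they did. Hk2 and Pdk1 were the lowest in control (20.9 ± 3.58 and 29.9 ± 8.47) and overlapped there. In Atg5 KO cells Pfkp, above Pfkl in control, joined Hk2 and Pdk1 among the lowest 3, at 25.1 ± 6.44 RPKM against 40.5 ± 20.2 for Pdk1, with overlapping ranges. From Slc2a1 down to Pfkl in the control order, each neighbour in the order overlapped the next.

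Over the 12 libraries, the 2 genes whose log2 level followed each member most closely were rarely other members, and Pgk1 beside Pfkp was the only case. Pfkp had Nrn1 and Pgk1 (Pearson r = 0.95 and 0.93), and Pgk1 had Radil and Akr1e1 (0.95 and 0.93). Slc2a1 had P4hb and Lrp12 (0.93 and 0.93), Hk2 had M6pr and Ints13 (0.96 and 0.95), Hif1a had Ccdc157 and Hnrnph3 (0.92 and 0.91), and Slc16a3 had Arl13b and B330016D10Rik (0.88 and 0.86). These are the highest of 12232 genes for 12 points that share controls and groups, so they are given as a description.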

How the data were processed

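RNA was sequenced from 12 libraries, 3 of control 562 cells and 3 for each KO. Libraries were directional. The authors aligned reads with TopHat2, counted them on known transcripts with Bioconductor packages and tested them with edgeR. Tool versions, genome build, annotation and strand setting are not given in the sources used here. Each of the 3 deposited tables gives RPKM per library (reads scaled by gene length and library total), which was used here. The deposited group means, a signal of reads divided by size factors, and the authors' fold ratio, log2 fold change and p-value columns of their own comparisons were not used. The reads behind each RPKM value came out whole for 100.0% of genes with reads (within 0.05 of a read).

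Genes at 0.5 RPKM or more in at least 3 of the libraries compared were tested on log2(RPKM + 0.5) with limma 3.58.1 in R 4.3.3 (lmFit and eBayes, 3 against 3 libraries), and p-values were adjusted by Benjamini-Hochberg over all genes tested. A fold change is on the log2(RPKM + 0.5) scale, which understates changes of low genes. KO cells were compared with each other in 1 fit of all 12 libraries. A gene passed at an adjusted p of at most 0.1. With 3 against 3 libraries an exact permutation test cannot go below 0.1. The study describes its mRNA samples as independent replicates, but the labels do not tie them to separate cultures, so p-values measure the spread between these libraries. Summaries, permutation tests and figures used Python 3.11.15 with scipy 1.17.1, pandas 2.3.3, matplotlib 3.10.9 and numpy 2.4.6. The fit was tested on simulated data before use.

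The members and gene lists were chosen with earlier results of these data known. Named genes were the members, fixed partner isoforms and pathway genes, the lowest and highest called gene of each list, and the 2 genes most like each member. Pitrm1, Eno1b, Tsc1, Crebbp, Rbx1 and the single marker genes were named after their values were seen. Alternatives were pseudocounts of 0.1 and 1, no filter and a stricter filter (mean RPKM of at least 2), median-of-ratios scaling, all 12 libraries in 1 fit, the replicate number as a block, a term for the prefix of the library name, and each library left out.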

Additional observations from a re-analysis of the deposited data

How the results depend on the processing

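The number of members that passed at 2-fold in Atg5 KO was 2 to 4 when each library was left out in turn, and 4 to 5 passed at any fold. With a term for the prefix of the library name, 1 member passed by either rule in Atg5 KO, 0 in Atg7 KO (limma, 0 at an unadjusted p under 0.05), and 663, 38 and 47 of all genes passed at 2-fold in Atg5 KO, Atg7 KO and Fip200 KO. In this fit the Atg7 KO difference rested on Atg5 KO replicate 3. The sign then turned for Slc2a1 (0.0087) and Pdk1 (-0.11) in Fip200 KO, Hk2 in Atg5 KO (-0.0011), and Hk2 (-0.12), Pdk1 (-0.67) and Slc16a3 (0.23) in Atg7 KO, none of which had passed. One fit of all 12 libraries gave 608 genes at 2-fold and 1 member at any fold, Slc16a3, in Fip200 KO and 2 members at 2-fold in Atg7 KO. Without the filter on low values 146 genes passed in Fip200 KO, and 0 members in Atg7 KO (3 at an unadjusted p under 0.05), and the stricter filter gave 137 genes in Fip200 KO. The causes were not tested.

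The replicate number as a block gave 93 genes in Fip200 KO and 1 member at any fold in Atg7 KO, and it changed the call of no member in Atg5 KO or Fip200 KO. Same-numbered libraries did not visibly deviate together (r from -0.218 to 0.0767 over 9 pairs, and from -0.195 to 0.216 over differently numbered pairs). With deviations taken from means of 3 libraries, this cannot tell whether the numbers pair them.

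With each library left out in turn, 0 to 598 genes passed in Fip200 KO (0 without control replicate 2 or 3, with 1103 and 913 at an unadjusted p under 0.05) and 576 to 1514 in Atg7 KO, the lowest without control replicate 3. Members passing at 2-fold were 0 to 1 in Fip200 KO and 0 to 2 in Atg7 KO, and at any fold 0 to 1 and 0 to 5. The 1 was Hk2 without Fip200 KO replicate 3, and the 5 came without Atg7 KO replicate 2. Log2 fold changes that turned sign ran from -0.72 to 0.19 for Slc2a1, -0.18 to 0.38 for Ldha and -0.21 to 0.25 for Pdk1 in Fip200 KO, from -0.22 to 0.047 for Hk1, -0.16 to 0.11 for Ldha and -0.0077 to 0.64 for Pdk1 in Atg5 KO, and from -0.35 to 0.12 for Slc2a1 and -0.21 to 0.87 for Hk2 in Atg7 KO. Isoform shares that moved by more than the replicate spread had differences from control of 0.213 to 1.38 points for Ldha and -3.68 to 8.43 for Pdk1 in Fip200 KO, 0.170 to 4.44 for Hk2, 0.0782 to 1.25 for Ldha and 27.8 to 35.0 for Pfkl in Atg5 KO, and 0.260 to 1.43 for Ldha, 1.98 to 14.1 for Pdk1 and -10.9 to -4.98 for Pfkm in Atg7 KO.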
